A study of Mus musculus musculus x Mus musculus castaneus with 8 samples.

Results

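DNA replication licensing and fork genes are the genes whose products mark replication origins, open the DNA and copy it in S phase. The 46 genes described here were chosen by name, with earlier results of these data known, and all 46 occur among the 24421 genes of the composite count table. They fall into 7 roles: origin licensing (12 genes), helicase activation (6), polymerases and primase (8), sliding clamp, clamp loader and strand joining (9), nucleotide supply (5), chromatin assembly and fork protection (4) and cyclin E (2). All 46 passed the filter on low counts, which kept 12643 genes for testing.

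In outline, the origin recognition complex, Cdc6 and Cdt1 load the ring of Mcm2 to Mcm7 onto DNA in G1, and geminin (Gmnn) blocks Cdt1 once S phase has begun. Cdc45, the GINS complex and Mcm10 then turn that ring into an active helicase, polymerase alpha with primase starts each strand, and polymerases delta and epsilon extend them behind the PCNA clamp. Many of these genes are transcribed by E2F factors as cells pass from G1 into S phase, which is why their RNA is often read as a sign of cycling cells.

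Total RNA of female tail fibroblasts was sequenced with its strand kept; the cells came from an F1 hybrid between Mus musculus and Mus castaneus, so that reads over sequence variants can be given to the mus or the cas allele. There were 4 groups of 2 libraries each: cells given 5azadC (5-aza-2'-deoxycytidine, a cytidine analogue that blocks DNA methylation after it is built into new DNA) together with VX680 (an inhibitor of the Aurora kinases, which act in mitosis), VX680 alone, 5azadC alone, or neither drug. Every group, including untreated cells, carried the same volume of the solvent DMSO, was grown for 72 h on 15 cm plates, and received its drug 24 h after plating. The study's title names the question: synergy between DNA methylation and Aurora kinases in reactivation of the X chromosome. The labels give no dose, and they do not say whether the replicates were separate cultures, so the spread behind each p-value is that between these libraries and may be technical.

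The libraries held 6908503 to 11169532 reads in genes, of which the 46 genes took 0.404% to 0.481%. Fibroblast markers were abundant, with a summed level of 12321 to 34010 CPM (reads scaled to library size). That level was lower in treated cells, at 12370 and 12321 CPM with both drugs, 14586 and 15283 with VX680 and 18560 and 22234 with 5azadC, against 31701 and 34010 CPM in untreated cells. The markers did not all fall, and Col1a1 was the most abundant. Of 10 tested, 3 rose and 7 fell with both drugs, 3 and 7 with VX680 and 2 and 5 with 5azadC. Of all genes tested, 28.4%, 23.8% and 22.6% rose with both drugs, VX680 and 5azadC. Those that fell were 27.3%, 22.4% and 19.6%. The part of this shift in the results below was not tested. Summed markers of keratinocytes (1.34 to 2.77 CPM), endothelium (1.10 to 9.57) and skeletal muscle (0.806 to 9.84) were low, and so were those of leukocytes (15.0 to 26.5, with Cd3e at 0), melanocytes (26.5 to 42.9, with Tyr at 0), chondrocytes (10.3 to 28.3) and adipocytes (23.4 to 90.3). All 3 endothelial markers tested rose with VX680, where the list summed to 7.503 and 9.57 CPM, against 1.16 and 1.10 CPM in untreated cells. With both drugs or 5azadC 0 of the 3 were called. The 2 skeletal muscle markers tested both rose with both drugs and with VX680, and 1 rose with 5azadC. That list summed to 9.84 and 8.64 CPM with both drugs and 5.68 and 7.35 with VX680, against 0.806 and 0.965 CPM in untreated cells. In both lists 0 fell. Of 5 markers of RNA quality and total RNA content, 2 rose and 1 fell with both drugs, 1 rose and 1 fell with VX680 and 2 fell with 5azadC. That list summed to 77170 and 77892 CPM with both drugs, 54878 and 57237 with VX680 and 45108 and 75880 with 5azadC, against 52796 and 67239 CPM in untreated cells. The part of these markers in the results was not tested. Replicates differed most within the 5azadC group, where 700 genes differed 2-fold or more between replicates against 427 in the untreated group, yet no replication gene differed 1.5-fold between the 5azadC replicates.

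Most replication genes moved little under any drug, and those that changed mostly fell, with Rrm2 as the largest exception. With both drugs 6 of the 46 genes rose and 11 fell, where 28.4% of all genes tested rose and 27.3% fell. With VX680 alone 2 rose and 15 fell, against 23.8% and 22.4% of all genes. With 5azadC alone 3 rose and 12 fell, against 22.6% and 19.6% of all genes. Calls are edgeR quasi-likelihood tests with Benjamini-Hochberg adjusted p under 0.05 over all 12643 genes. The share of replication genes that rose was below that of all genes in each comparison, and the share that fell was 23.9% with both drugs, 32.6% with VX680 and 26.1% with 5azadC.

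The median log2 change of the 46 genes was -0.07 with both drugs, -0.16 with VX680 and -0.12 with 5azadC, beside medians over all genes of 0.01, 0.01 and 0.00. Of the called changes, 1 was at least 2-fold, that of Rrm2 with both drugs. These comparisons share the untreated libraries, so their results are not independent of each other. In bulk RNA, fewer cells in S phase and less RNA of these genes per cell cannot be told apart. Scaling by the factors of the authors' normalized table, which moves the median of all genes by 0.10 with both drugs and 0.10 with VX680, gave 9 higher and 9 lower with both drugs and 3 higher and 9 lower with VX680. Without untreated replicate 1 the falls numbered 9 with both drugs, 9 with VX680 and 5 with 5azadC. Leaving out VX680 replicate 2 left 9 falls with VX680 and leaving out VX680 replicate 1 left 10. The 12 falls with 5azadC came to 7 when any VX680 or combination library was left out.

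Across the 3 comparisons, 10 genes were called in all 3, 6 in 2, 7 in 1 and 23 in none, which is 21.7%, 13.0%, 15.2% and 50% of the 46. Of all genes tested 30.3% were called in all 3, 18.2% in 2, 16.7% in 1 and 34.8% in none, so the count by itself shows nothing about the replication genes. Those called in all 3 were Rrm2 and Orc2, which were higher each time, and Mcm6, Gins1, Pola1, Pola2, Prim1, Pole, Chaf1b and Timeless, which were lower each time. Subunits of the same complex were thus not called alike: Mcm6 but not Mcm2 or Mcm7, Gins1 but not Gins2, Gins3 or Gins4, and Prim1 but not Prim2. No test compared subunits with each other, so a split in calls does not show that they changed unequally. The smallest unadjusted edgeR p against untreated cells was 0.0345 for Mcm2 and 0.0443 for Mcm7. The plot of all 46 genes by library shows each gene beside the others of its role.

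**Figure D1:**
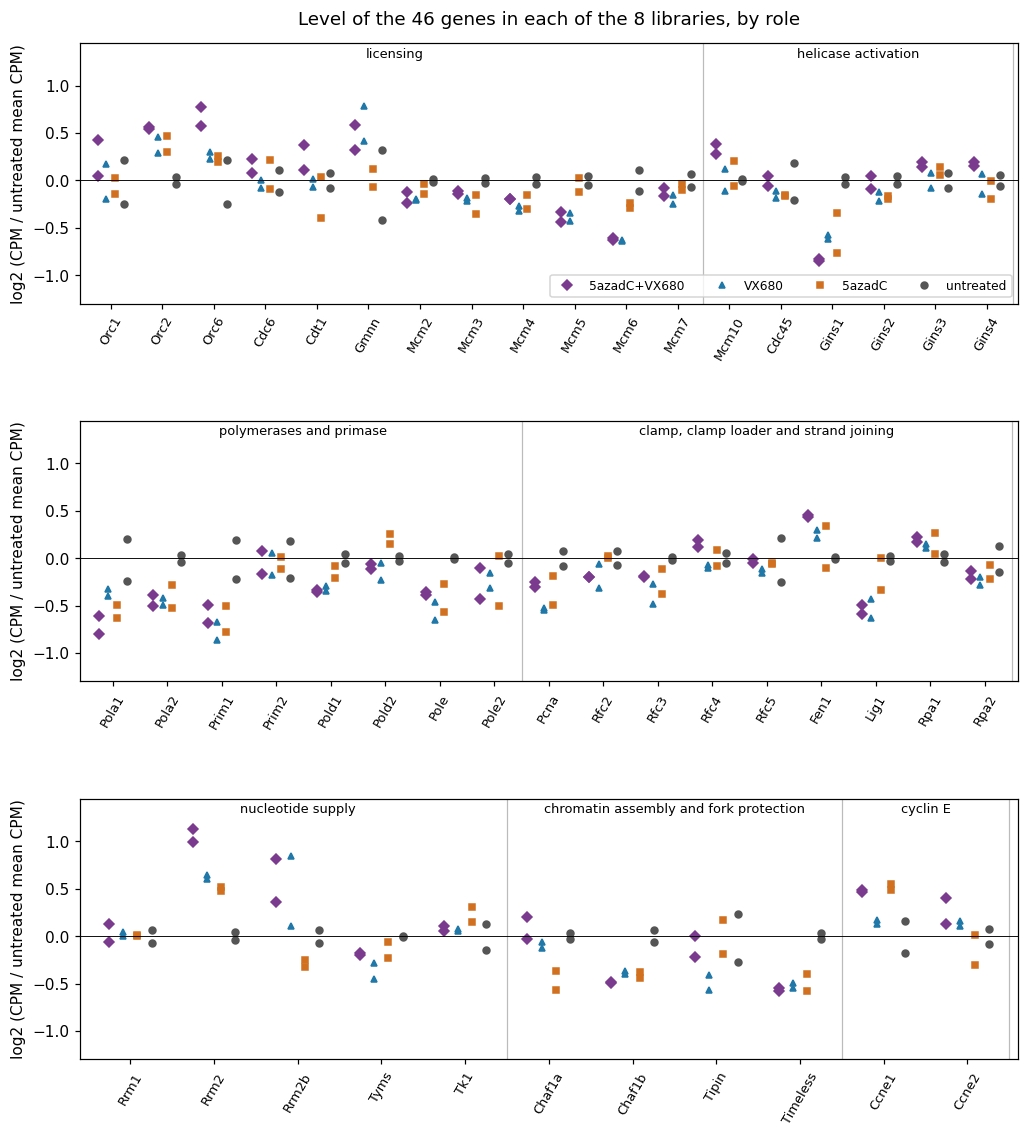
Level of each of the 46 genes in each of the 8 libraries, as log2 of CPM over the mean CPM of untreated cells, by role. Points are libraries and symbols are groups, and most points lie within 0.5 of 0. Treated libraries further out include those of Rrm2, Orc6 and Rrm2b above the line. Below it they include those of Mcm6, Gins1, Pola1, Prim1, Pole, Timeless and Lig1, and some other genes also pass 0.5.

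**Figure D2:**
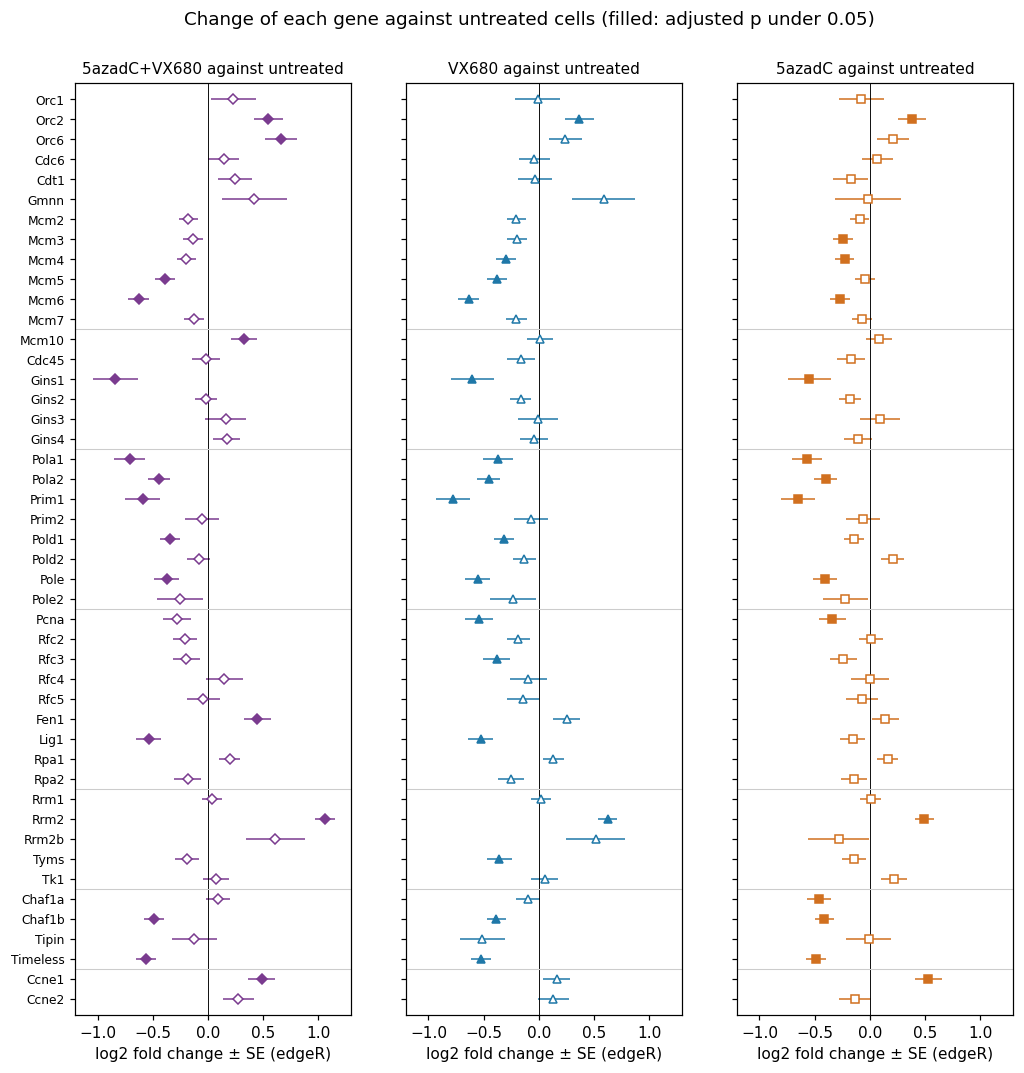
Log2 fold change ± SE from the edgeR fit (2 libraries a group) for each of the 46 genes, one panel per treatment, each against untreated cells. Filled symbols passed an adjusted p of 0.05, and most filled symbols lie left of 0, among them 5 of the 8 polymerase and primase genes with both drugs.

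Among licensing genes every called fall was in a ring subunit and every called rise in an origin recognition subunit, in the 3 comparisons against untreated cells. Per unit of length, the ring subunits were the most abundant of the licensing genes: in untreated cells Mcm2 averaged 107 RPKM (reads scaled to gene length and library size), Mcm3 104, Mcm4 102, Mcm5 91.3 and Mcm7 83.5, with Mcm6 at 46.4. Of the 12 licensing genes, 2 rose and 2 fell with both drugs, 1 rose and 3 fell with VX680, and 1 rose and 3 fell with 5azadC. The shares that fell were 16.7%, 25% and 25%, where 27.3%, 22.4% and 19.6% of all genes fell. The shares that rose were 16.7%, 8.33% and 8.33%, where 28.4%, 23.8% and 22.6% of all genes rose. With 12 genes, no more than the counts is read from this.

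Mcm6 (chromosome 1), a subunit of the helicase ring, had the lowest log2 change of the 6 in each treatment. It had 132 and 134 CPM with both drugs, 133 and 132 with VX680 and 173 and 167 with 5azadC, against 221 and 189 in untreated cells. All 6 treated libraries lay below both untreated ones, and the VX680 libraries lay below the 5azadC ones. The log2 change was -0.62 ± 0.10 with both drugs (SE, edgeR adjusted p = 8.48e-05), -0.63 ± 0.09 with VX680 (0.000111) and -0.27 ± 0.09 with 5azadC (0.0338). With 5azadC alone the call was lost when untreated replicate 1, 5azadC replicate 2 or any VX680 or combination library was left out (adjusted p up to 0.231).

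Mcm5 (chromosome 8), another ring subunit, had 231 and 248 CPM with both drugs, 246 and 233 with VX680 and 317 and 288 with 5azadC, against 322 and 303 in untreated cells. It fell where VX680 was present, by 0.39 ± 0.09 on the log2 scale with both drugs (edgeR adjusted p = 0.00256) and by 0.38 ± 0.09 with VX680 (0.0035, and 0.0517 without VX680 replicate 2). With 5azadC its change of -0.05 ± 0.09 did not pass (95% interval -0.22 to 0.13). The difference between the single drugs was itself called: VX680 against 5azadC gave -0.34 ± 0.09 for Mcm5 (adjusted p = 0.0217) and -0.36 ± 0.10 for Mcm6 (0.0189). Neither call held with the deposited scaling, nor without either VX680 library, and that of Mcm5 was also lost without 5azadC replicate 1 (adjusted p up to 0.202).

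Smaller falls were called for Mcm4 and Mcm3, also ring subunits. Mcm4 fell by 0.30 ± 0.09 with VX680 (edgeR adjusted p = 0.0123) and by 0.23 ± 0.09 with 5azadC (0.0499), and Mcm3 by 0.25 ± 0.09 with 5azadC (0.0417). These 3 calls were among the least stable, with adjusted p up to 0.105, 0.163 and 0.146 when a library was left out; both calls of Mcm4 were lost with the deposited scaling, and that with VX680 without untreated replicate 1 or either VX680 library. The 5azadC calls of Mcm3 and Mcm4 were lost without either untreated library, 5azadC replicate 2 or any VX680 or combination library. Mcm2 and Mcm7 passed in no comparison, and the log2 changes of Mcm2 to Mcm7 all lay below 0 in all 3 comparisons.

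Orc2 (chromosome 1), a subunit of the origin recognition complex, rose in each treatment. Its level was 40.9 and 40.2 CPM with both drugs, 33.8 and 38.0 with VX680 and 38.2 and 34.0 with 5azadC, against 28.4 and 27.0 in untreated cells. The log2 change was 0.55 ± 0.13 with both drugs (edgeR adjusted p = 0.00277), 0.37 ± 0.13 with VX680 (0.0324) and 0.38 ± 0.13 with 5azadC (0.0295). No treated library overlapped the untreated ones. The single-drug calls were lost with DESeq2 and without either untreated library, and with 5azadC also without 5azadC replicate 1 (adjusted p up to 0.148) and with VX680 also without either VX680 library or combination replicate 1 (adjusted p up to 0.217).

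Orc6 (chromosome 8), the smallest origin recognition subunit, had 50.3 and 57.5 CPM with both drugs, 39.3 and 41.4 with VX680 and 38.7 and 40.3 with 5azadC, against 39.0 and 28.4 in untreated cells. Only the combination libraries stood clear of the rest. It rose by 0.66 ± 0.15 with both drugs (edgeR adjusted p = 0.0016), and neither single drug passed. Orc1, the loading factor Cdc6, its partner Cdt1 and the Cdt1 inhibitor Gmnn passed in no comparison against untreated cells. Gmnn, at 7.62 and 4.54 CPM in untreated cells, was the replication gene furthest apart between untreated replicates.

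In the helicase activation group, Gins1 (chromosome 2), a subunit of the 4-part GINS complex, fell in each treatment. It had 10.7 and 10.9 CPM with both drugs, 12.6 and 12.9 with VX680 and 11.4 and 15.2 with 5azadC, against 19.9 and 18.8 in untreated cells. The groups did not overlap untreated cells, and the log2 change was -0.84 ± 0.20 with both drugs (edgeR adjusted p = 0.00309), -0.60 ± 0.20 with VX680 (0.0224) and -0.55 ± 0.20 with 5azadC (0.039). The single-drug calls were lost with DESeq2 and without either untreated library, with VX680 also with the deposited scaling and without either VX680 library (adjusted p up to 0.118), and with 5azadC also without 5azadC replicate 1 or any VX680 or combination library (adjusted p up to 0.236).

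The other GINS subunits were not called with it, and no test compared them with Gins1. Gins2 averaged 95.5 ± 6.4 CPM with both drugs, 86.2 ± 4.1 with VX680 and 85.3 ± 1.5 with 5azadC, against 96.7 ± 4.0 in untreated cells (SD, n = 2), and passed in no comparison. Gins3, Gins4 and Cdc45, the helicase cofactor, passed in none either, with log2 changes between -0.17 and 0.17. Mcm10, which helps to set the helicase going, rose with both drugs, by 0.33 ± 0.12 (edgeR adjusted p = 0.0282), and passed with neither single drug. It had 73.8 and 79.2 CPM with both drugs, 66.0 and 56.1 with VX680 and 70.01 and 58.4 with 5azadC, against 61.2 and 60.4 in untreated cells. This call was lost with DESeq2 and without either untreated or either combination library (adjusted p up to 0.166).

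The called changes of polymerase and primase genes against untreated cells were all falls. Of 8, 5 fell with both drugs, 5 with VX680 and 4 with 5azadC, and none rose by edgeR, also none at an unadjusted p under 0.05. The shares that fell were 62.5%, 62.5% and 50%, where 27.3%, 22.4% and 19.6% of all genes fell. The share that rose was 0% each time, where 28.4%, 23.8% and 22.6% of all genes rose. With 5azadC 1 of the 8 had a log2 change above 0, at 0.21, and was not called. Their median log2 change was -0.36, -0.34 and -0.31, and the list's summed level was 513 and 531 CPM with both drugs, 512 and 527 with VX680 and 547 and 493 with 5azadC, against 673 and 581 in untreated cells. The lists differ in size, so no more than the counts is read from this.

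Prim1 (chromosome 10), the catalytic subunit of primase, had 34.6 and 39.3 CPM with both drugs, 30.4 and 34.6 with VX680 and 32.2 and 38.9 with 5azadC, against 63.2 and 47.5 in untreated cells. All treated libraries lay below the untreated ones, which were themselves some way apart. It fell by 0.59 ± 0.16 on the log2 scale with both drugs (edgeR adjusted p = 0.00524), by 0.78 ± 0.15 with VX680 (0.00102) and by 0.65 ± 0.15 with 5azadC (0.00404). Without untreated replicate 1 the adjusted p was 0.0741 with 5azadC, and the call with both drugs was lost without that library or combination replicate 1 (adjusted p up to 0.0943). Its partner Prim2, the regulatory primase subunit, stayed at 38.1 ± 4.6, 37.8 ± 4.2 and 37.9 ± 2.5 CPM with both drugs, VX680 and 5azadC, against 39.2 ± 7.4 in untreated cells (SD, n = 2).

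Pola1, the catalytic subunit of polymerase alpha, is the X-linked gene of the 46. It had 43.2 and 49.3 CPM with both drugs, 59.8 and 56.9 with VX680 and 53.4 and 48.3 with 5azadC, against 86.2 and 63.6 in untreated cells. Again every treated library lay below both untreated ones. Its log2 change was -0.71 ± 0.14 with both drugs (edgeR adjusted p = 0.000736), -0.37 ± 0.14 with VX680 (0.0393) and -0.57 ± 0.14 with 5azadC (0.00472). Without untreated replicate 1 the 5azadC call was lost (0.0845), and the VX680 call was lost with DESeq2, with the deposited scaling and without that library (0.455), either VX680 library or either combination library.

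Pola2 (chromosome 19), the accessory subunit of the same polymerase, had 102 and 94.0 CPM with both drugs, 94.7 and 99.7 with VX680 and 109 and 92.4 with 5azadC, against 137 and 129 in untreated cells. It fell by 0.44 ± 0.10, 0.45 ± 0.10 and 0.40 ± 0.10 with both drugs, VX680 and 5azadC (edgeR adjusted p = 0.00248, 0.00262 and 0.00669). These calls held in all 14 alternative settings. Pole (chromosome 5), the catalytic subunit of the leading-strand polymerase epsilon, had 80.7 and 78.7 CPM with both drugs, 65.8 and 75.0 with VX680 and 85.6 and 69.7 with 5azadC, against 104 and 102 in untreated cells. Here the log2 changes were -0.37 ± 0.11 (edgeR adjusted p = 0.0127), -0.55 ± 0.11 (0.00126) and -0.41 ± 0.11 (0.0105). The call of Pole with both drugs was lost with the deposited scaling (adjusted p = 0.0761) and without untreated replicate 1 or either combination library (up to 0.0736).

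Pold1, the catalytic subunit of the lagging-strand polymerase delta, fell where VX680 was present, by 0.35 ± 0.09 with both drugs (edgeR adjusted p = 0.00561) and by 0.32 ± 0.09 with VX680 (0.0114, lost without untreated replicate 1 or either VX680 library, up to 0.0948). Neither call held with the deposited scaling. The accessory subunits Pold2 and Pole2 passed in no comparison against untreated cells. Pold2 was lower with VX680 than with 5azadC, at 68.5 and 60.9 against 85.2 and 78.7 CPM (log2 change -0.34 ± 0.10, edgeR adjusted p = 0.0377), a call lost in 8 of 14 settings, 5 of which left out a library: 5azadC replicate 1 or any VX680 or combination library (adjusted p up to 0.301).

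Changes were mixed among clamp, clamp loader and strand joining genes. Of 9, 1 rose and 1 fell with both drugs, 3 fell with VX680 and 1 fell with 5azadC. The shares that fell were 11.1%, 33.3% and 11.1%, where 27.3%, 22.4% and 19.6% of all genes fell. The shares that rose were 11.1%, 0% and 0%, where 28.4%, 23.8% and 22.6% of all genes rose. Lig1 (chromosome 7), the ligase that joins lagging-strand fragments, had 150 and 160 CPM with both drugs, 146 and 166 with VX680 and 225 and 178 with 5azadC, against 220 and 229 in untreated cells. It fell by 0.54 ± 0.11 with both drugs and 0.53 ± 0.11 with VX680 (edgeR adjusted p = 0.00127 and 0.00194), in all alternative settings. Only 5azadC alone overlapped untreated cells (log2 change -0.15 ± 0.11, 95% interval -0.38 to 0.07). VX680 against 5azadC gave -0.37 ± 0.11 (adjusted p = 0.0413), a difference that was lost in 11 of 14 settings. Among them was every setting that left out a library other than 5azadC replicate 2 (adjusted p up to 0.312).

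Pcna (chromosome 2), the sliding clamp, had 45.8 and 44.3 CPM with both drugs, 37.8 and 37.3 with VX680 and 38.8 and 48.0 with 5azadC, against 57.5 and 51.6 in untreated cells. Its fall with VX680, 0.54 ± 0.13 on the log2 scale, held in all settings (edgeR adjusted p = 0.00305). With 5azadC it fell by 0.34 ± 0.12 (0.0433, and up to 0.294 without a library, lost with DESeq2 and without untreated replicate 1, 5azadC replicate 1 or any VX680 or combination library), and with both drugs its change of -0.28 ± 0.13 did not pass. The mouse genome holds processed copies of Pcna, and how the authors' counting divided such reads is not given in the sources used here.

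Fen1 (chromosome 19), the nuclease that trims lagging-strand flaps, moved the other way. It had 127 and 125 CPM with both drugs, 107 and 113 with VX680 and 117 and 86.3 with 5azadC, against 93.0 and 91.8 in untreated cells, and rose with both drugs by 0.45 ± 0.12 (edgeR adjusted p = 0.00683). Rfc3, a clamp loader subunit, fell with VX680 by 0.38 ± 0.12 (0.0196), a call lost with DESeq2, with the deposited scaling and without untreated replicate 1 or VX680 replicate 1 (adjusted p up to 0.197). The clamp loader subunits Rfc2, Rfc4 and Rfc5 and the single-strand binding subunits Rpa1 and Rpa2 passed in no comparison.

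Nucleotide supply held the largest rise. Rrm2 (chromosome 12), the small, cell-cycle regulated subunit of ribonucleotide reductase, which makes deoxynucleotides, had 387 and 352 CPM with both drugs, 276 and 269 with VX680 and 253 and 245 with 5azadC, against 172 and 182 in untreated cells. No 2 groups overlapped. Rrm2 was 2.09-fold higher with both drugs (log2 change 1.06 ± 0.09, edgeR adjusted p = 3.5e-07), 1.54-fold higher with VX680 (0.62 ± 0.09, 6.81e-05) and 1.41-fold higher with 5azadC (0.50 ± 0.09, 0.000543), and all 3 calls held in all 14 alternative settings.

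Rrm1, the large subunit of the same enzyme, did not move with it. Its level was 261 ± 24 CPM with both drugs, 258 ± 4.8 with VX680 and 256 ± 1.8 with 5azadC, against 254 ± 17 in untreated cells (SD, n = 2), with a log2 change of 0.04 ± 0.09 with both drugs (95% interval -0.14 to 0.22). Per length, Rrm2 averaged 170 and Rrm1 65.7 RPKM with both drugs, against 81.6 and 63.9 RPKM in untreated cells. Rrm2b, the p53-inducible alternative small subunit, was far lower at 3.26 RPKM with both drugs and 2.14 RPKM in untreated cells.

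Rrm2b had 12.4 and 17.0 CPM with both drugs, 10.4 and 17.3 with VX680 and 7.69 and 8.09 with 5azadC, against 9.16 and 10.1 in untreated cells. It passed in no comparison against untreated cells, and both drugs against 5azadC gave a log2 change of 0.90 ± 0.27 (edgeR adjusted p = 0.0285, lost without 5azadC replicate 1 or combination replicate 2, up to 0.238). Its VX680 libraries were more than 1.5-fold apart. Tyms, thymidylate synthase, fell with VX680 by 0.36 ± 0.11 (0.017, lost with DESeq2, with the deposited scaling and without either untreated library or VX680 replicate 2, up to 0.148). Tk1, the salvage thymidine kinase, passed in no comparison.

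Chromatin assembly and fork protection genes fell in part. Timeless (chromosome 10), a fork protection factor, had 118 and 121 CPM with both drugs, 120 and 125 with VX680 and 134 and 118 with 5azadC, against 180 and 172 in untreated cells. It fell by 0.56 ± 0.09, 0.53 ± 0.09 and 0.49 ± 0.09 with both drugs, VX680 and 5azadC (edgeR adjusted p = 0.000191, 0.000443 and 0.00096), in all 14 alternative settings each. The treated groups overlapped one another and none overlapped untreated cells. Tipin, which binds Timeless, passed in none of these comparisons.

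Chaf1b (chromosome 16), a subunit of the chromatin assembly factor that places histones on new DNA, had 138 and 139 CPM with both drugs, 147 and 150 with VX680 and 149 and 143 with 5azadC, against 185 and 203 in untreated cells. Its falls of 0.49 ± 0.09, 0.38 ± 0.09 and 0.41 ± 0.09 (edgeR adjusted p = 0.000376, 0.00293 and 0.0021) held in all settings. Chaf1a (chromosome 17), the large subunit of the same factor, had 85.3 and 100 CPM with both drugs, 79.5 and 83.1 with VX680 and 67.3 and 58.8 with 5azadC, against 88.9 and 85.0 in untreated cells. It fell with 5azadC alone, by 0.46 ± 0.11 (edgeR adjusted p = 0.00423).

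Ccne1 (chromosome 7) and Ccne2 encode cyclin E, which with Cdk2 drives the start of S phase. Ccne1 had 58.9 and 59.5 CPM with both drugs, 46.6 and 47.8 with VX680 and 62.2 and 59.7 with 5azadC, against 37.6 and 47.5 in untreated cells. It rose by 0.49 ± 0.12 with both drugs (edgeR adjusted p = 0.00392) and by 0.53 ± 0.12 with 5azadC (0.00321), while VX680 overlapped untreated cells (0.16 ± 0.12). Without untreated replicate 1 these calls were lost, at 0.0732 and 0.0627. Ccne2 had 52.9 and 43.7 CPM with both drugs, 43.0 and 44.6 with VX680 and 32.6 and 40.5 with 5azadC, against 37.9 and 42.2 in untreated cells, and passed in no comparison against untreated cells.

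Ratios taken within a library need no scaling between libraries. Rrm2 over Rrm1, as reads per base, was 2.91 and 2.32 with both drugs, 1.99 and 1.89 with VX680 and 1.81 and 1.77 with 5azadC, against 1.19 and 1.38 in untreated cells. Prim1 over Prim2 was 1.28 and 1.23 with both drugs, 1.13 and 1.10 with VX680 and 1.15 and 1.27 with 5azadC, against 1.84 and 1.80 in untreated cells. Mcm6 over the mean of the other 5 ring subunits was 0.361 and 0.350 with both drugs and 0.368 and 0.367 with VX680, against 0.507 and 0.446 in untreated cells, and 5azadC at 0.424 and 0.449 overlapped untreated cells. Ccne1 over Ccne2 was 1.73 and 2.11 with both drugs, 1.68 and 1.66 with VX680 and 2.96 and 2.29 with 5azadC, against 1.54 and 1.75 in untreated cells, so the combination overlapped untreated cells although Ccne1 was called higher there. Such a ratio shows unequal change of 2 genes and not which of them changed.

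**Figure D3:**
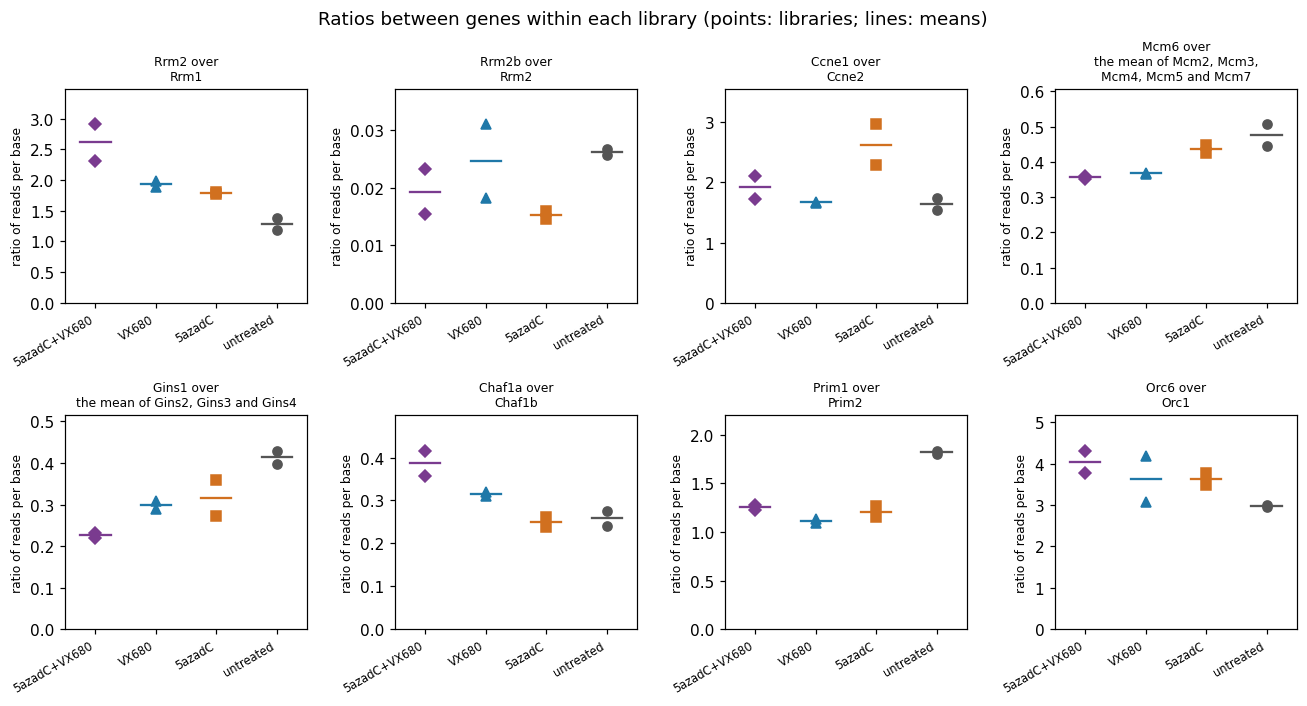
Ratios of reads per base between named genes in each library, with points for libraries and lines for the mean of 2. Rrm2 over Rrm1 is highest with both drugs and lowest in untreated cells, and Prim1 over Prim2 is between 1.10 and 1.28 in the treated libraries, against 1.80 and 1.84 in untreated cells.

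Adding VX680 to 5azadC, which asks what the second drug changed, raised 5 and lowered 3 of the 46 genes, where 9.98% of all genes rose and 14.8% fell. The rises were Rrm2 (0.57 ± 0.09, edgeR adjusted p = 0.00042), Chaf1a (0.56 ± 0.11, 0.00257, and 0.0553 without combination replicate 2), Orc6 (0.45 ± 0.14, 0.0363), Rrm2b and Ccne2 (0.41 ± 0.14, 0.0486), and the falls were Mcm5, Mcm6 and Lig1. The Ccne2 call was lost in 10 of 14 settings, including DESeq2 and every setting that left out a library other than 5azadC replicate 2 (adjusted p up to 0.357). The Orc6 call was lost in 6, with DESeq2 and without 5azadC replicate 1 or any VX680 or combination library (adjusted p up to 0.255). With the deposited scaling, which moves the median of all genes by 0.11, 8 rose and 0 fell. Without combination replicate 1 there were 3 rises, and without combination replicate 2 there was 1. Without either of these libraries there was no fall, and leaving out either VX680 library left 3 rises.

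Adding 5azadC to VX680 raised 1 gene and lowered 0, where 2.45% of all genes rose and 4.05% fell. That gene was Rrm2, which had 387 and 352 CPM with both drugs, against 276 and 269 CPM with VX680 (log2 change 0.44 ± 0.09, edgeR adjusted p = 0.0092, lost without any of these 4 libraries, up to 0.144). DESeq2 gave 1 and 0 as well, and at an unadjusted p under 0.05 in edgeR there were 4 and 1. The median log2 change of the 46 genes was 0.10. VX680 against 5azadC raised Chaf1a and lowered Mcm5, Mcm6, Pold2 and Lig1, 1 and 4 of 46, where 6.47% of all genes rose and 9.33% fell; with the deposited scaling, which moves the median of all genes by 0.11, 2 rose and 0 fell. Leaving out 1 library gave 0 to 2 rises and 0 to 6 falls, with 0 falls without either VX680 library and 6 without 5azadC replicate 2.

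The interaction compares the change with both drugs with the sum of the 2 single-drug changes on the log2 scale. It was above 0 for 5 of the 46 genes and below 0 for none, where 4.95% of all genes were called above and 10.6% below. At an unadjusted p under 0.05 there were 11 above and 0 below, and DESeq2 gave 4 and 0. The genes were Prim1 (0.84 ± 0.22, edgeR adjusted p = 0.0213), Chaf1a (0.65 ± 0.16, 0.0121), Pcna (0.60 ± 0.18, 0.0372), Pole (0.59 ± 0.16, 0.0249) and Timeless (0.45 ± 0.13, 0.0359). Prim1 averaged 37.0 CPM with both drugs, where the product of the single-drug fold changes would give 20.5 CPM. The median interaction over the 46 genes was 0.24, against -0.03 over all genes. The 5 calls rest on few libraries: none was called without VX680 replicate 1 or without combination replicate 2, and 1 was called without untreated replicate 1. Without 5azadC replicate 1 or 2 there were 7, without untreated replicate 2 or VX680 replicate 2 there were 3, and without combination replicate 1 there were 2. Rrm2 had an interaction of -0.06 ± 0.12 (95% interval -0.30 to 0.19), so its rise with both drugs did not differ measurably from the sum of its single-drug rises.

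**Figure D4:**
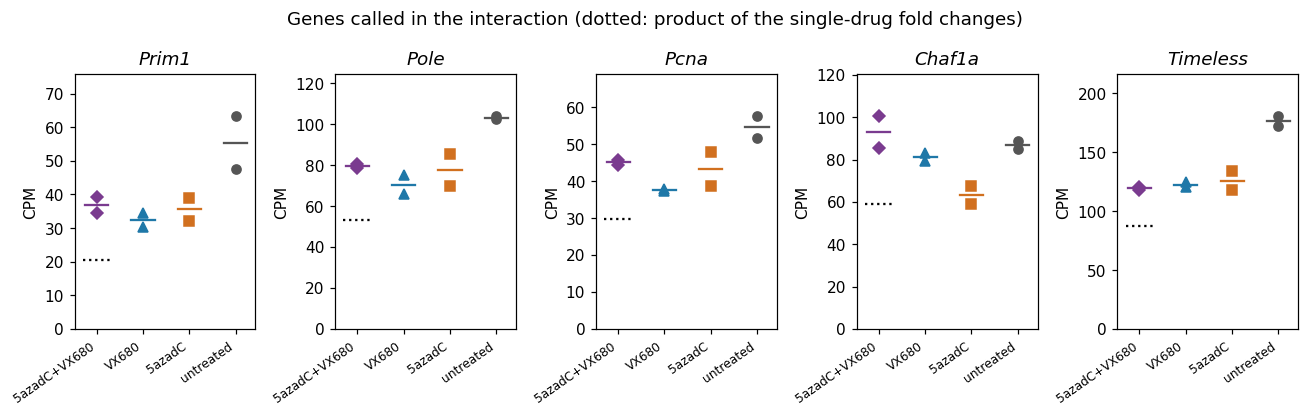
CPM of the 5 genes called in the interaction, with points for libraries and lines for the mean of 2, by group. The dotted line marks the level that the product of the single-drug fold changes would give with both drugs (20.5 CPM for Prim1). The combination libraries lie above it in every panel, which follows from choosing genes with an interaction called above 0.

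The other genes of replication outside the 46 were mixed in direction. Of 31 other replication factors, 4 rose and 6 fell with both drugs, 3 rose and 7 fell with VX680, and 6 fell with 5azadC, where 0 rose (2 at an unadjusted p under 0.05). As shares, 12.9%, 9.68% and 0% rose, where 28.4%, 23.8% and 22.6% of all genes did. Those that fell were 19.4%, 22.6% and 19.4%, where 27.3%, 22.4% and 19.6% of all genes did. The counts by themselves thus show no response of these factors. Dbf4, the activator of the Cdc7 kinase that fires origins, had 162 and 169 CPM with both drugs, 143 and 154 with VX680 and 107 and 92.2 with 5azadC, against 92.0 and 80.6 in untreated cells. It rose by 0.93 ± 0.11 with both drugs and 0.77 ± 0.11 with VX680 (edgeR adjusted p = 5.9e-06 and 5.1e-05). The histone chaperone gene Asf1b rose by 0.67 ± 0.12 with both drugs and 0.47 ± 0.12 with VX680.

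Among the falls, Dna2, a nuclease and helicase that processes flaps, fell by 0.64 ± 0.14 with both drugs, 0.56 ± 0.14 with VX680 and 1.04 ± 0.15 with 5azadC. Dscc1, part of an alternative clamp loader for cohesion, fell by 1.42 ± 0.25, 0.80 ± 0.24 and 0.72 ± 0.24. Mcm9, a relative of the ring subunits that acts in repair, fell by 0.87 ± 0.16 with both drugs and 0.94 ± 0.16 with VX680. Atad5, which unloads the clamp, and Ticrr, which helps to fire origins, both fell in each treatment, Atad5 by 0.38 ± 0.15 and Ticrr by 0.62 ± 0.14 with both drugs.

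Of 13 other nucleotide supply genes, 6 rose and 0 fell with both drugs, 5 rose and 1 fell with VX680, and 4 rose and 0 fell with 5azadC. Both counts of 0 falls were also 0 at an unadjusted p under 0.05. As shares, 46.2%, 38.5% and 30.8% rose, where 28.4%, 23.8% and 22.6% of all genes did. Those that fell were 0%, 7.69% and 0%, where 27.3%, 22.4% and 19.6% of all genes did. Cad, which starts pyrimidine synthesis, had 370 and 361 CPM with both drugs, 306 and 322 with VX680 and 377 and 345 with 5azadC, against 208 and 231 in untreated cells. It rose by 0.74 ± 0.09, 0.52 ± 0.09 and 0.72 ± 0.09 with both drugs, VX680 and 5azadC (edgeR adjusted p = 1.2e-05, 0.00038 and 3.2e-05). Gart, of purine synthesis, and Umps, of pyrimidine synthesis, rose in each treatment, by 0.78 ± 0.10 and 0.76 ± 0.10 with both drugs.

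Some regulators of S phase entry changed several-fold. Cdkn1a, the p53-induced inhibitor of cyclin-dependent kinases, had 400 and 407 CPM with both drugs, 356 and 341 with VX680 and 274 and 293 with 5azadC, against 40.0 and 42.5 in untreated cells. It rose by 3.29 ± 0.10, 3.08 ± 0.10 and 2.78 ± 0.10 on the log2 scale with both drugs, VX680 and 5azadC (edgeR adjusted p = 4.2e-11, 1.5e-10 and 1.7e-09). The D cyclin gene Ccnd1 rose 11.3-fold with both drugs, and the kinase inhibitor gene Cdkn1b fell by 1.63 ± 0.10. Of 18 p53 targets, 14 rose in each treatment, while 2, 1 and 2 fell with both drugs, VX680 and 5azadC. That rise is 77.8%, where 28.4%, 23.8% and 22.6% of all genes rose. Of 23 regulators, 8 rose and 7 fell with both drugs, 7 and 8 with VX680 and 7 and 5 with 5azadC. As shares, 34.8%, 30.4% and 30.4% of the regulators rose. Those that fell were 30.4%, 34.8% and 21.7%, where 27.3%, 22.4% and 19.6% of all genes fell. Whether these changes bear on the replication genes was not tested.

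Mitotic genes were also counted, as a list outside the replication genes. Of 14, 10 rose with both drugs, 7 with VX680 and 2 with 5azadC, while 1, 1 and 2 fell. As shares, 71.4%, 50% and 14.3% rose, where 28.4%, 23.8% and 22.6% of all genes did. Those that fell were 7.14%, 7.14% and 14.3%, where 27.3%, 22.4% and 19.6% of all genes did. VX680 against 5azadC raised 7 of the 14 and lowered 0, also 0 at an unadjusted p under 0.05. In that comparison 6.47% of all genes rose and 9.33% fell. Aurka, the gene of 1 of the Aurora kinases that VX680 targets, had 166 and 164 CPM with both drugs, 173 and 179 with VX680 and 101 and 91.2 with 5azadC, against 92.8 and 79.4 in untreated cells. It rose 1.91-fold with both drugs and 2.03-fold with VX680 (edgeR adjusted p = 4e-06 and 3e-06). Mki67, a marker of cycling cells, fell in each treatment, by 0.22 ± 0.09 with both drugs, 0.29 ± 0.09 with VX680 and 0.40 ± 0.09 with 5azadC.

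Allele counts gave a readout apart from the total level. Of the 46 genes, 45 had enough allelic reads to be tested, Gins3 being the exception. No ratio of mus to cas reads passed the edgeR quasi-likelihood test in any treatment, where 0.515% of all 10301 genes did with both drugs, 0.379% with VX680 and 0.282% with 5azadC. At an unadjusted p under 0.05 there were 4, 2 and 3 genes, and the smallest adjusted p was 0.33, 0.525 and 0.627. The SE of the log2 change in ratio was wide, with a median over the 45 genes of 0.35 with both drugs, 0.35 with VX680 and 0.34 with 5azadC, so that a miss does not show an unchanged ratio. Over all libraries 37 of the 45 genes had between 30% and 70% of reads from the mus allele.

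Both Mcm6 and Pcna were read almost wholly from 1 allele in every group. Mcm6 had 0.48% to 2.46% mus reads over the 8 libraries (33 of 3442 reads), and Pcna 98.3% to 100% (1855 of 1867). Ccne1 had 3.36% and 7.30% mus reads with both drugs, 3.68% and 0.862% with VX680 and 9.60% and 15.9% with 5azadC, against 4.17% and 5.88% in untreated cells. The 5azadC libraries lay above all others, but the log2 change of the ratio, 1.39 ± 0.56, did not pass (edgeR adjusted p = 0.627, unadjusted 0.0169). In the authors' deposited table for 5azadC Ccne1 passed on the mus allele (log2 fold change 1.81, false discovery rate 0.0396) and not on the cas allele (0.42, 0.165). Mapping against the reference genome can favour an allele, and its part in these shares was not tested. Rrm2 was near balance, with 46.2% and 48.5% mus reads with both drugs, against 45.1% and 46.5% in untreated cells.

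Pola1, on the X chromosome, gave almost no mus reads in any group. It had 0 of 50 and 0 of 45 with both drugs, 0 of 96 and 0 of 59 with VX680 and 1 of 64 and 0 of 42 with 5azadC, against 0 of 192 and 2 of 55 in untreated cells. The exact binomial 95% upper limits were 7.11% and 7.87% with both drugs, against 1.90% and 12.5% in untreated cells. These limits cover counting error only. Pooled over X-linked genes except Xist, Pola1 included, the mus share was 5.81% in each combination library. In untreated cells it was 4.08% and 4.10%, so a rise of that size in Pola1 was not detectable at this depth.

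**Figure D5:**
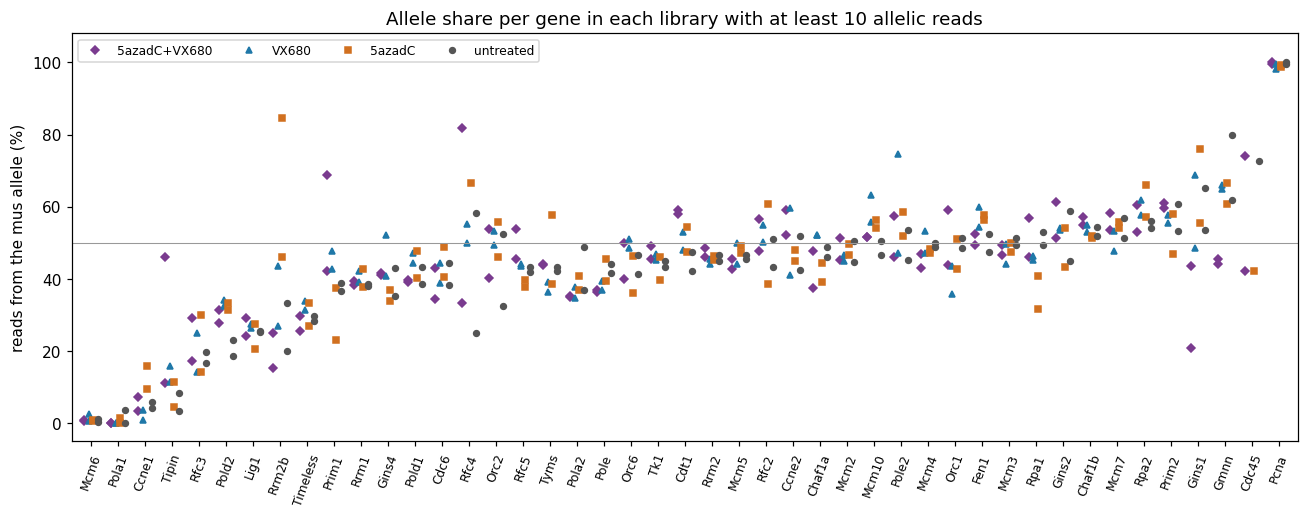
Percent of allelic reads from the mus allele for 45 of the 46 genes, with points for each library that had at least 10 allelic reads, ordered by the mean of the untreated libraries. Most genes lie near the line at 50%, with Mcm6 and Pola1 near 0 and Pcna near 100% in all groups.

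In the authors' deposited tables, which test each allele's signal apart, Rrm2 was higher on both alleles with both drugs, with log2 fold changes of 1.19 on the mus and 1.16 on the cas allele, and with VX680, at 0.69 and 0.77. In the authors' deposited table for 5azadC it passed on the cas allele alone (0.51, false discovery rate 0.0179, against 0.49 and 0.109 on the mus allele). Of 44 replication genes listed with both drugs, the authors' deposited tables call 4 higher and 4 lower on the mus allele and 4 higher and 6 lower on the cas allele. The share of all genes called by the authors' tests was not taken here, so these counts by themselves show nothing about the replication genes. Timeless, Pola1, Rrm2, Orc6 and Fen1 are called on both alleles in the authors' deposited tables, but for the mus allele of Pola1 the allelic counts held 2 reads in 1 untreated library and 0 in the other and in both combination libraries. That a gene passes on 1 allele and not on the other does not show that the alleles differ, which the ratio test above addresses.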

How the data were processed

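Per the submitters' processing notes, reads were handled on mm9 with TopHat2 2.0.10, HOMER 4.8 and edgeR (no version or role given). The composite and allelic tables deposited by the authors hold raw counts per gene, and the composite table, per the file headers, also gives gene length, used here for RPKM. The authors' normalized signal equals those counts times a factor per library, from 1 to 1.614, used as an alternative scaling. The authors' comparison tables give log2 fold changes and false discovery rates (adjusted p-values) per allele, and their 24 per-sample signal columns and the 8 allelic totals were left out.

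Counts were tested with edgeR 4.0.16 in R 4.3.3: filterByExpr, TMM, 1 mean per group over all 8 libraries, quasi-likelihood F tests, and Benjamini-Hochberg adjusted p under 0.05 over all 12643 genes kept. CPM and RPKM use TMM-scaled library sizes. Allele ratios were tested by edgeR in the 10301 genes averaging 10 or more allelic reads a library, with a term per library. Alternatives were RLE and deposited scaling, DESeq2 1.42.0, no filter, a replicate block, only the groups compared, and leaving out each library. Fits were tested on simulated data. For total counts, 100 genes were changed 2-fold and 100 genes 1.5-fold, in 1 group at a time. These genes averaged at least 100 reads a library. Far more genes were called in the real data, so the rates below need not hold there, nor for genes with fewer reads. For both drugs, VX680 and 5azadC, 90% of 2-fold changes were recovered each time, and 56%, 61% and 51% of 1.5-fold changes. False calls made up 9.32%, 6.79% and 7.84% of calls. For the allele ratio with both drugs, 91% of 4-fold and 18% of 2-fold changes were recovered. A gene that was not called is therefore not shown to be unchanged. The members and lists were chosen with earlier results of these data known. Per-library values are given for up to 4 genes of each role with the smallest p, and for those with an interaction or X linkage, and pairs. Of other lists up to 4 genes with the smallest p per comparison are named, plus Cdkn1a, Aurka and Mki67. One gene this rule would name is not reported here. The annotation supplied follows another build, so chromosomes but no coordinates are given.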

Additional observations from a re-analysis of the deposited data

Results flagged for a closer look

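In 5 genes the effect of VX680 differed with and without 5azadC, by a test of the difference itself (the interaction in edgeR, 2 libraries a group). The difference, on the log2 scale, was 0.84 for Prim1, 0.59 for Pole, 0.60 for Pcna, 0.65 for Chaf1a and 0.45 for Timeless, with adjusted p of 0.0213, 0.0249, 0.0372, 0.0121 and 0.0359. For Chaf1a, VX680 went with a log2 change of 0.56 ± 0.11 in cells that also had 5azadC and of -0.10 ± 0.11 in cells without it. For Prim1 the same pair was 0.06 ± 0.16 and -0.78 ± 0.15. None of the 5 was called without VX680 replicate 1 or without combination replicate 2.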

How the results depend on the processing

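Of 68 called changes of a gene in a comparison, 28 kept the call in every alternative and none reversed. Leaving out 1 library at a time moved the number of genes higher to 2 to 5 and lower to 5 to 11 with 5azadC against untreated, 1 to 3 and 9 to 20 with VX680, and 4 to 8 and 9 to 14 with both drugs. It gave 1 to 6 higher and 0 to 4 lower with both drugs against 5azadC, 0 to 3 and 0 with both against VX680, 0 to 2 and 0 to 6 with VX680 against 5azadC, 0 to 7 above and 0 below for the interaction, and 0 allele ratios. With 5azadC against untreated 7 genes were lower with no filter, and 7 with only the groups compared. DESeq2 gave 1 higher with VX680, 3 higher with both drugs against 5azadC and 0 higher with VX680 against 5azadC. Deposited scaling gave 9 lower with VX680, 8 higher and 0 lower with both drugs against 5azadC, and 2 higher and 0 lower with VX680 against 5azadC. With only the groups compared there were 1 lower with both drugs against 5azadC, 4 higher and 1 lower with both against VX680, and 0 higher and 1 lower with VX680 against 5azadC, which had 2 higher with no filter. The cause was not tested.

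Changes that were not called and turned sign are given with the range over leaving out 1 library. With 5azadC against untreated these were Cdt1 (-0.42 to 0.035), Cdc45 (-0.35 to 0.035), Pole2 (-0.51 to 0.029) and Fen1 (-0.10 to 0.32), and with VX680 Cdc45 (-0.34 to 0.046) and Ccne1 (-0.0258 to 0.32). The others were Ccne2 with both drugs against VX680 (-0.00316 to 0.27), Pole with VX680 against 5azadC (-0.28 to 0.00457) and Orc6 in the interaction (-0.032 to 0.42). Mcm2 with both drugs against 5azadC was 0.020 with deposited scaling. The replicate numbers did not pair the libraries (correlations of -0.0622 to 0.0326), and with the replicate block 9 genes were lower with 5azadC, 15 with VX680 and 11 with both drugs. The SE of a log2 change against untreated cells ran from 0.09 for Mcm2 to 0.30 for Gmnn.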
